A study of Mus musculus with 16 samples.

Results

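The genes described here are 50 genes of the cell cycle, of which 21 act at the G1/S transition or in DNA replication and 29 act in G2 and mitosis. They were chosen by name: a gene spot belonged to the set when the gene name given by the array's design was 1 of the 50, out of 36450 genes on the array. Where a gene had several probes, the brightest on average was used. A probe well above background on at least 3 arrays was tested, which left 47 of the 50 genes among 24357 tested. All 21 G1/S and replication genes and 26 of the 29 G2/M genes were tested. The phosphatase gene Cdc25c was above background on 2 arrays, and the kinase gene Aurkb and the kinetochore gene Cenpf on 0 arrays, so these 3 have no test. Genes are named with the value of every array by a rule given with the processing, and E2f2, Mcm6, Mcm10, Cdc6, Bub1b, Cenpe and Mybl2 were singled out after their values were seen.

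To ask how the loss of lipocalin 2 bears on the liver's response to repeated injury, the study profiled livers of wild type (WT) and Lcn2-/- mice with and without carbon tetrachloride (CCl4). All animals were male BALB/c mice of 6 to 8 weeks. CCl4 is a solvent that hepatocytes convert to a toxic radical, and it was given by intraperitoneal injection in corn oil at 0.5 ml/kg, 2 times per week for 4 weeks, with livers taken 48 h after the last dose. Control mice received corn oil, per the study's methods. Of the arrays, 4 came from WT and 3 from Lcn2-/- controls, and after CCl4 5 came from WT and 4 from Lcn2-/- mice. They are labelled as replicates of a group, and each p-value rests on the spread between these arrays. The Lcn2-/- line was made on a mixed background and then backcrossed to BALB/c.

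A cell commits to division in G1, when D-type and E-type cyclins with their kinases inactivate RB proteins and free E2F factors. E2F factors then drive genes for licensing of origins, the MCM helicase and the synthesis of nucleotides. Genes for G2 and mitosis are held down in resting cells and are switched on later by the MuvB complex with B-MYB and FOXM1, through promoter elements known as the CHR and the CCAAT box. Hepatocytes of the adult liver rest outside the cycle and can enter it again after injury, while Kupffer cells, stellate cells, endothelial cells and infiltrating leukocytes can divide as well.

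Levels are given as log2 signal after quantile normalization, and differences are log2 differences with the standard error (SE) from limma. The share of spots clearly above background ran from 51.6% to 60.9% per array. Lcn2 itself, which tests the genotype labels, lay between 10.47 and 12.25 on the 7 Lcn2-/- arrays and between 13.79 and 17.57 on the 9 WT arrays. All 7 hepatocyte markers were above background on all 16 arrays. The arrays came from 2 slides. Slide 1 held all 7 controls and WT CCl4 replicate 1, and slide 2 held the other 8 CCl4 arrays, so in Lcn2-/- mice CCl4 and slide cannot be told apart and in WT mice only 1 array links them. On slide 1 the WT controls lay in row 1 and the Lcn2-/- controls and WT CCl4 replicate 1 in row 2, and on slide 2 the WT arrays lay in row 1 and the Lcn2-/- arrays in row 2. Among the controls and within slide 2, genotype and row of the slide therefore cannot be told apart. Along the first component of the genes outside the cell cycle lists (40.1% of the variance), WT control replicate 3 (-1.9) and Lcn2-/- control replicate 3 (-43.5) were, each within its own group, the control nearest to the CCl4 arrays (16.7 to 70.9), the other WT controls lying between -75.3 and -40.7 and the other Lcn2-/- controls at -86.8 and -93.4. The main counts of the CCl4 responses are therefore also given without these 2 controls.

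The G2/M genes had positive differences after CCl4 in both genotypes, but few single genes passed the test. Of the 47 tested genes 3 (Ccne2, Cdc6 and Ttk) passed the filter on dim probes only with their WT CCl4 arrays, so for Cdc6 and Ttk, high in that group, a higher level there was built into their choice and is no support where they are counted. Bub1 was above background on 1 WT control, 0 Lcn2-/- controls and all CCl4 arrays of both genotypes. It passed the filter only through CCl4 arrays, so it is no support in the counts of the CCl4 responses either. In WT mice all 26 tested had a positive difference, with a median of 0.85 against -0.03 over all genes, and 1 of 26 (Cdk1) passed adjusted p 0.05 by limma, where 16.8% of all genes were called. Without adjustment 7 of 26, Ttk and Bub1 among them, passed in the higher direction, where 13.8% of all genes did, and 30.7% in either direction. In 0 of 26 did every WT CCl4 array lie above every WT control, as held for 8.03% of all genes. In Lcn2-/- mice 25 of 26 had a positive difference, with a median of 0.94 against -0.02 over all genes. There 2 of 26 (Cdk1 and Kif11) passed adjusted p 0.05 by limma, where 12.2% of all genes did. Without adjustment 6 of 26, Bub1 among them, passed, where 13.4% of all genes did in the higher direction and 27% in either. With all 16 arrays, no array weights and no block for slide, the share of G2/M genes called was thus below that of all genes in both genotypes, while their median lay above that of all genes. The order of the shares depended on the fit. It turned around in both genotypes without the 2 controls numbered 3 and with slide as a fixed block (30.8% of G2/M genes against 5.35% of all genes in WT, 7.69% against 1.74% in Lcn2-/-). In each genotype, leaving out its own control replicate 3 alone also turned it around. In WT mice 8 of 26 were then called against 21% of all genes, and in Lcn2-/- mice 19.2% against 12.4%. With array weights it turned around in Lcn2-/- mice (46.2% against 28.6%) and not in WT mice (15.4% against 29%). The arrays measured whole liver, so a change in the number of cells of a type and a change in RNA per cell cannot be told apart.

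The G2/M genes varied more between arrays of a group than other genes, and the median SE of a G2/M gene was 0.535 in the WT response against 0.195 over all genes. To set out this spread, the level of each gene on an array was taken as its deviation from its mean over all arrays, and the median of these deviations over the genes was formed. For the 26 G2/M genes this median was -0.43, -0.43, 1.27 and -0.66 in WT control replicates 1 to 4. It was -1.7, -1.67 and -0.14 in Lcn2-/- control. It was 2.29, 1.44, 0.42, 0.07 and 0.14 in WT CCl4 and 0.16, -0.18, -0.22 and -0.14 in Lcn2-/- CCl4. Replicate 3 of each control group stood above the others of its group, and WT control replicate 3 also stood above 3 of the 5 WT CCl4 arrays. The 4 Lcn2-/- CCl4 arrays lay within 0.38 of each other, whereas the 5 WT CCl4 arrays spanned 2.22, with replicate 1 the highest.

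**Figure D1:**
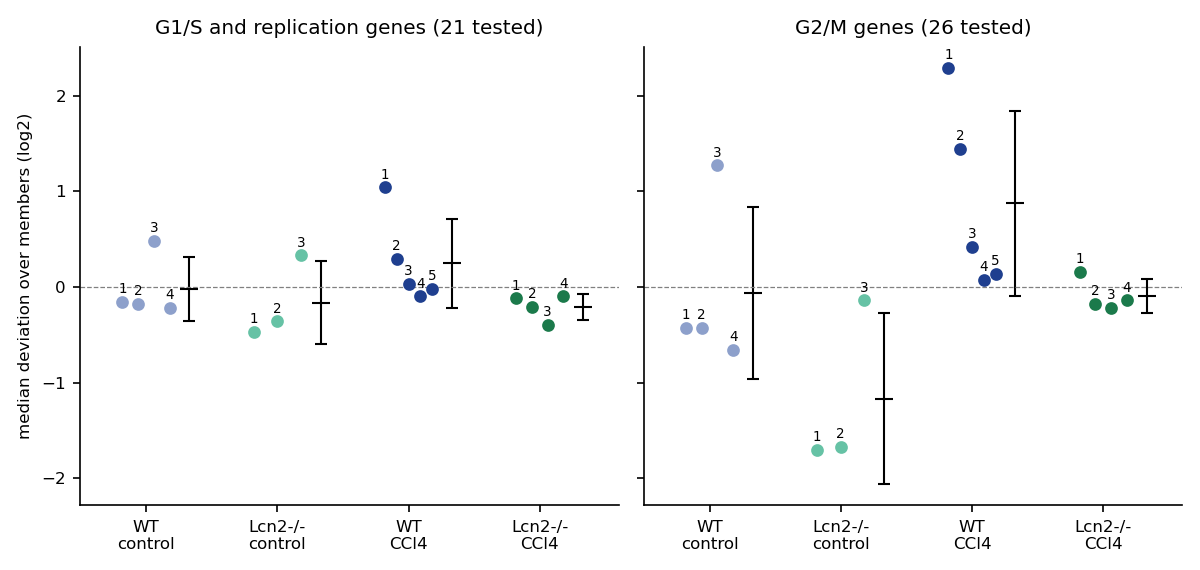
Median over the tested genes of the deviation from each gene's own mean (log2, y axis) for each array, by group (x axis), for the 21 G1/S and replication genes and the 26 G2/M genes. Numbers beside the points are replicate numbers, and the black mark and bar give the mean and SD of a group. For the G2/M genes replicate 3 stands above the others of both control groups (1.27 and -0.14), and the WT CCl4 arrays run from 0.07 to 2.29.

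The same arrays led their groups in nearly every gene. WT control replicate 3 was the highest WT control for 25 of 26 G2/M genes and 17 of 21 G1/S and replication genes. Lcn2-/- control replicate 3 was the highest of its group for 25 of 26 and 17 of 21. WT CCl4 replicate 1 was the highest WT CCl4 array for 24 of 26 and 19 of 21. Without WT control replicate 3 and Lcn2-/- control replicate 3, an alternative chosen after the data were seen, 15 of 26 G2/M genes (57.7%) were called higher in WT mice and 10 of 26 (38.5%) in Lcn2-/- mice by limma, where 22.4% and 15.1% of all genes were called, with medians of 1.29 and 1.52. Without WT CCl4 replicate 1 alone, the WT response had 0 of 26 called by limma, 2 at unadjusted p under 0.05, and a median of 0.6, where 13.9% of all genes were called and 28.1% passed without adjustment. With slide as a fixed block, a fit in which WT CCl4 replicate 1 alone separates slide from CCl4 for both genotypes, the G2/M medians were 2.38 in WT and 2.86 in Lcn2-/- mice, against -0.05 and -0.04 over all genes.

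With all 16 arrays and no block for slide, the median difference of the G1/S and replication genes was close to that of all genes. In WT mice 14 of 21 had a positive difference, with a median of 0.1, and 1 of 21 (Ccnd1) was called by limma, against 16.8% of all genes. Without adjustment 2 of 21 passed (Ccnd1 and Cdc6), both higher, against 13.8% of all genes in that direction. In Lcn2-/- mice 11 of 21 were positive, with a median of 0.03, and 0 of 21 were called by limma, against 12.2% of all genes, with 1 higher at unadjusted p under 0.05, against 13.4%. The sign of both medians depended on single arrays. In WT mice the median was -0.09 without WT CCl4 replicate 1 (8 of 21 positive) and 0.3 without WT control replicate 3. In Lcn2-/- mice it was -0.26 without Lcn2-/- control replicate 2 and 0.15 without Lcn2-/- control replicate 3. With slide as a fixed block, which again rests on WT CCl4 replicate 1 in both genotypes, the medians were 0.89 (20 of 21 positive) in WT and 0.9 (19 of 21 positive) in Lcn2-/- mice, against -0.05 and -0.04 over all genes. The group medians of their deviations were also closer together, at -0.16, -0.18, 0.48 and -0.22 in WT control, -0.47, -0.36 and 0.33 in Lcn2-/- control, 1.04, 0.29, 0.03, -0.1 and -0.02 in WT CCl4, and -0.12, -0.21, -0.4 and -0.1 in Lcn2-/- CCl4. The range of the WT controls overlapped that of each other group, WT CCl4 replicate 1 being the highest array and Lcn2-/- control replicate 1 the lowest.

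**Figure D2:**
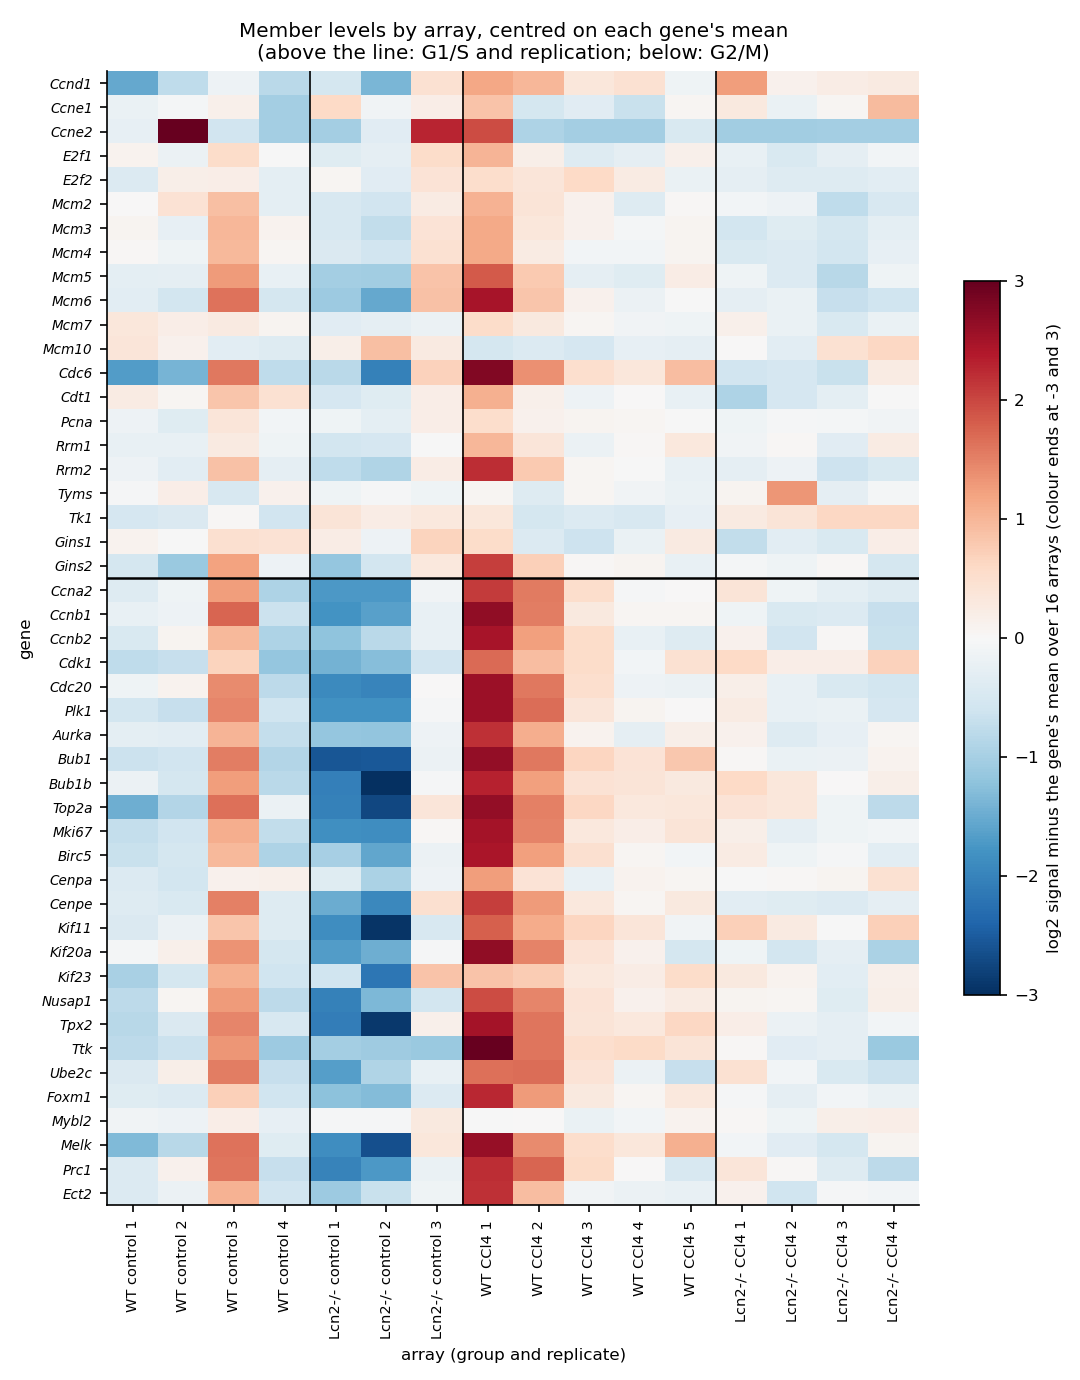
Level of the 47 tested genes (rows, G1/S and replication above the line, G2/M below) on the 16 arrays (columns, grouped), as log2 signal minus the gene's mean over 16 arrays, with colours ending at -3 and 3. The columns of WT control replicate 3 and WT CCl4 replicates 1 and 2 are high over most G2/M rows, and Lcn2-/- control replicates 1 and 2 are low, while Mcm10, Tyms and Mybl2 do not follow.

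Cyclin D1, which couples growth signals to the RB switch, was the G1 gene that changed. Ccnd1 measured 11.31, 12.1, 12.69 and 12.05 in WT control, 12.32, 11.48 and 13.3 in Lcn2-/- control, 14.02, 13.85, 13.19, 13.31 and 12.72 in WT CCl4, and 14.1, 12.98, 13.08 and 13.13 in Lcn2-/- CCl4. All 5 WT CCl4 arrays lay above all 4 WT controls, by a small margin (12.72 against 12.69). Ccnd1 rose by 1.38 ± 0.385 (SE; 2.6-fold; adjusted p = 0.0243 by limma; exact permutation p = 0.0159, two-sided) in WT mice. In Lcn2-/- mice the difference was 0.96 ± 0.439 (adjusted p = 0.177 by limma; exact permutation p = 0.2, two-sided), and the groups overlapped because control replicate 3 reached 13.3. The difference in the Lcn2-/- response itself was not detected (interaction -0.42 ± 0.584, adjusted p = 1 by limma). Leaving out 1 array at a time, the WT call was lost in 5 of 16 fits (without WT control replicate 1, 2 or 4 or WT CCl4 replicate 1 or 2), with differences from 1.14 to 1.6. With slide as a fixed block the WT difference was 1.99 ± 0.633 and the call was lost (adjusted p = 0.0922 by limma).

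The E-type cyclins, which bind CDK2 at the G1/S boundary, did not pass the test. Ccne1 measured 10.85, 10.99, 11.19 and 10.02 in WT control, 11.65, 10.95 and 11.25 in Lcn2-/- control, 11.91, 10.52, 10.7, 10.38 and 11.1 in WT CCl4, and 11.34, 10.84, 11.1 and 11.99 in Lcn2-/- CCl4. The 4 groups overlapped, and the WT response of Ccne1 was 0.16 ± 0.33. A second Ccne1 probe, above background on 14 arrays, gave 0.86 ± 0.468 in WT mice (unadjusted p = 0.0875 by limma). Between the 2 probes r was 0.59 over 16 arrays. Ccne2 measured 3.68, 10.41, 3.35 and 2.91 in WT control, 2.89, 3.58 and 6.2 in Lcn2-/- control, 5.87, 2.99, 2.9, 2.9 and 3.47 in WT CCl4, and 2.88, 2.88, 2.89 and 2.89 in Lcn2-/- CCl4. Ccne2 was above background on 3 arrays, 1 each of WT control, Lcn2-/- control and WT CCl4, and its mean in WT control rested on replicate 2. The arrays not above background carry no order for it.

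E2F1 and E2F2 activate the replication genes. E2f1 measured 9.67, 9.38, 10.1 and 9.54 in WT control, 9.19, 9.28 and 10.1 in Lcn2-/- control, 10.58, 9.74, 9.17, 9.28 and 9.72 in WT CCl4, and 9.33, 9.1, 9.3 and 9.48 in Lcn2-/- CCl4. For E2f1 the groups overlapped in every comparison, with a WT response of 0.02 ± 0.266. E2f2 measured 11.03, 11.61, 11.63 and 11.13 in WT control, 11.48, 11.08 and 11.84 in Lcn2-/- control, 11.97, 11.8, 12.04, 11.68 and 11.24 in WT CCl4, and 11.17, 11.05, 11.04 and 11.11 in Lcn2-/- CCl4. E2f2 was the member with the clearest gap between genotypes under CCl4 among these factors, since every Lcn2-/- CCl4 array (11.04 to 11.17) lay below every WT CCl4 array (11.24 to 12.04). Its difference of -0.66 ± 0.19 had exact permutation p = 0.0159 (two-sided) but adjusted p = 0.16 by limma.

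The MCM proteins 2 to 7 form the ring that unwinds DNA at the fork. Mcm2 measured 9.11, 9.54, 10.02 and 8.82 in WT control, 8.64, 8.54 and 9.35 in Lcn2-/- control, 10.15, 9.49, 9.25, 8.73 and 9.15 in WT CCl4, and 9.03, 8.95, 8.35 and 8.64 in Lcn2-/- CCl4. Mcm5 measured 9.63, 9.67, 11.21 and 9.71 in WT control, 8.91, 8.88 and 10.78 in Lcn2-/- control, 11.76, 10.71, 9.65, 9.57 and 10.16 in WT CCl4, and 9.81, 9.53, 9.09 and 9.8 in Lcn2-/- CCl4. Neither WT response exceeded its spread (-0.02 ± 0.295 and 0.31 ± 0.501), and in both the highest control was replicate 3. Mcm6 measured 11.18, 10.95, 13.12 and 10.97 in WT control, 10.41, 9.96 and 12.38 in Lcn2-/- control, 13.96, 12.32, 11.63, 11.31 and 11.49 in WT CCl4, and 11.23, 11.29, 10.8 and 10.9 in Lcn2-/- CCl4. Mcm6 spanned the widest range of the MCM genes, from 9.96 to 13.96, and followed the G2/M genes. Mcm3, Mcm4 and Mcm7 had WT responses of 0.1, 0.02 and -0.08, with adjusted p of 0.753 or more by limma. Mcm10, which helps to load the replicative polymerase, had levels of 15.4 to 16.83 and a WT response of -0.34 ± 0.216.

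Licensing factors load the MCM ring on origins. Cdc6 was 3.27, 3.54, 6.51 and 4.17 in WT control, 4.12, 2.92 and 5.64 in Lcn2-/- control, 7.71, 6.3, 5.44, 5.28 and 5.87 in WT CCl4, and 4.37, 4.43, 4.27 and 5.19 in Lcn2-/- CCl4. It was above background on all 5 WT CCl4 arrays, on WT control replicate 3 and on 0 of the 7 Lcn2-/- arrays. Since it passed the filter only through WT CCl4, its WT response of 1.75 ± 0.683 and its level in Lcn2-/- CCl4, at least 1.93-fold below WT CCl4, are given as a description. Cdt1 had a WT response of -0.22 ± 0.266. Of the GINS genes of the helicase complex, Gins1 had WT and Lcn2-/- responses of -0.33 and -0.57 and Gins2 of 0.68 and 0.29, none past the test.

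PCNA is the sliding clamp of the polymerases. Pcna measured 13.49, 13.28, 14.02 and 13.56 in WT control, 13.52, 13.36 and 13.85 in Lcn2-/- control, 14.17, 13.77, 13.73, 13.7 and 13.63 in WT CCl4, and 13.52, 13.61, 13.58 and 13.54 in Lcn2-/- CCl4. Its 4 Lcn2-/- CCl4 arrays lay within 13.52 to 13.61, just below the 5 WT CCl4 arrays (13.63 to 14.17), with a difference of -0.23 ± 0.153 (exact permutation p = 0.0159, two-sided; adjusted p = 0.523 by limma). Ribonucleotide reductase, thymidylate synthase and thymidine kinase supply deoxynucleotides. Rrm2 measured 10.46, 10.31, 11.5 and 10.35 in WT control, 9.86, 9.72 and 10.85 in Lcn2-/- control, 12.83, 11.4, 10.68, 10.6 and 10.41 in WT CCl4, and 10.35, 10.47, 9.99 and 10.17 in Lcn2-/- CCl4. Rrm2, the cell-cycle-dependent subunit, had a WT response of 0.53 ± 0.434 and was 12.83 in WT CCl4 replicate 1, with the other 4 WT CCl4 arrays between 10.41 and 11.4. Rrm1 had a WT response of 0.38 ± 0.215. Tyms measured 7.19, 7.43, 6.75 and 7.35 in WT control, 7.1, 7.2 and 7.1 in Lcn2-/- control, 7.29, 6.84, 7.28, 7.13 and 7.04 in WT CCl4, and 7.31, 8.55, 6.95 and 7.18 in Lcn2-/- CCl4. Tyms stayed between 6.75 and 7.43 on all arrays except Lcn2-/- CCl4 replicate 2, and its WT response was -0.07 ± 0.257.

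Thymidine kinase 1 salvages thymidine, and it had a positive difference between genotypes where most of these genes had a negative one. Tk1 measured 12.93, 13, 13.48 and 12.85 in WT control, 13.82, 13.66 and 13.75 in Lcn2-/- control, 13.78, 12.9, 13.02, 12.95 and 13.18 in WT CCl4, and 13.7, 13.83, 14.06 and 14.06 in Lcn2-/- CCl4. Every Lcn2-/- control (13.66 to 13.82) lay above every WT control (12.85 to 13.48), and under CCl4 4 of the 5 WT arrays were at 13.18 or below while WT replicate 1 reached into the Lcn2-/- range. The Lcn2-/- minus WT difference of Tk1 was 0.68 ± 0.203 in controls and 0.75 ± 0.178 under CCl4, with the lowest adjusted p of the 47 genes in both genotype comparisons (0.223 and 0.084 by limma), so it was not called. Without WT CCl4 replicate 1, that is, within slide 2, the CCl4 difference was 0.9 with adjusted p = 0.00947 by limma, a comparison in which genotype and row of the slide go together. With array weights it was called in both genotype comparisons (0.79 in controls and 0.86 under CCl4; adjusted p = 0.00729 and 0.0192 by limma). The CCl4 responses of Tk1 were 0.1 ± 0.178 in WT and 0.17 ± 0.203 in Lcn2-/- mice, and with slide as a fixed block 0.71 ± 0.223 and 0.93 ± 0.271 (adjusted p = 0.0874 and 0.104 by limma).

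**Figure D3:**
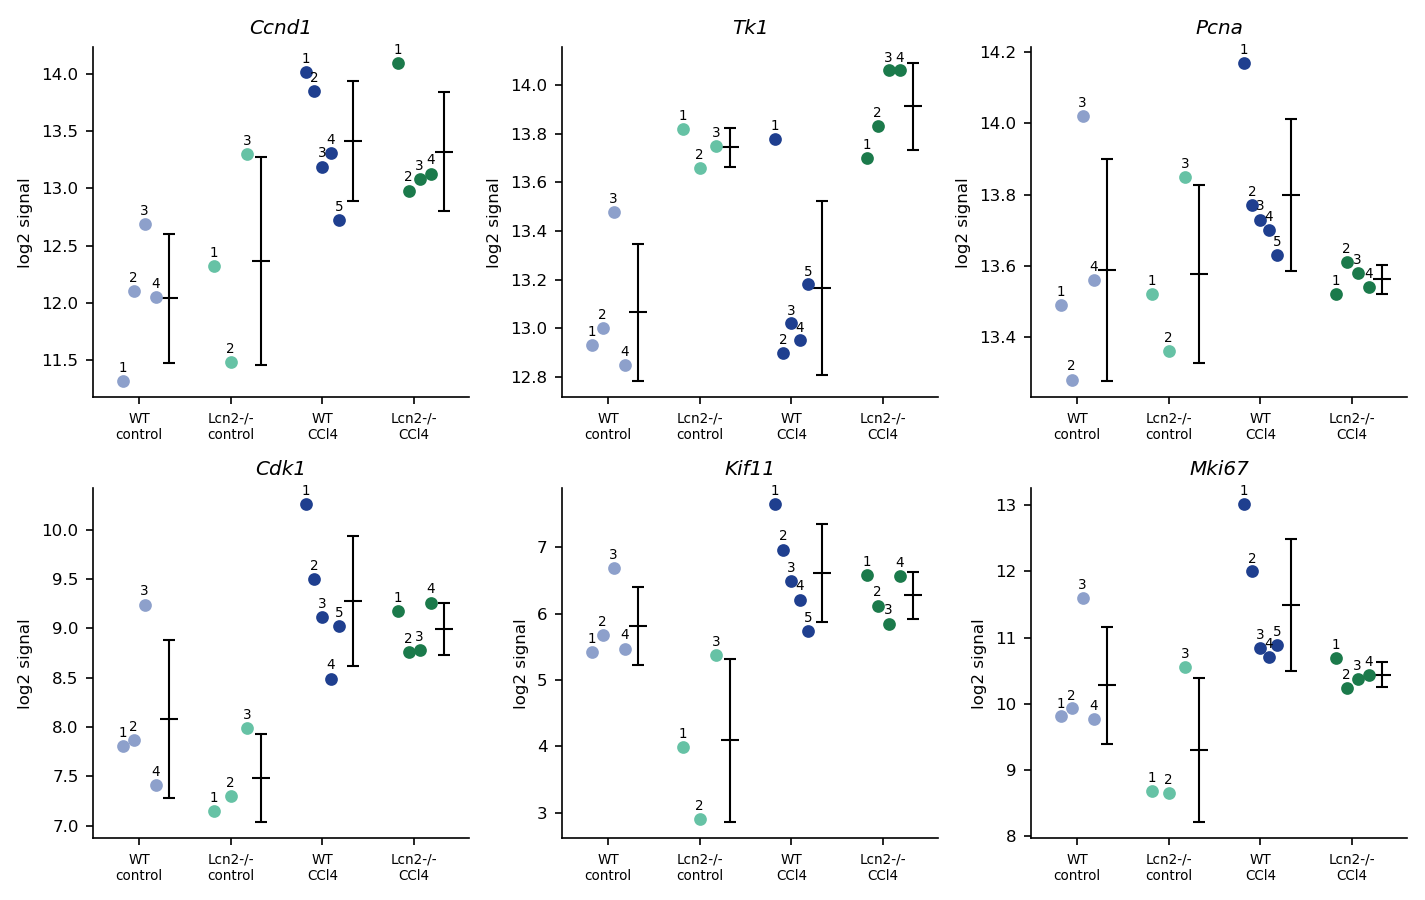
Log2 signal (y axis) on each array, by group (x axis), of Ccnd1, Tk1, Pcna, Cdk1, Kif11 and Mki67. Numbers are replicate numbers, and the black mark and bar give the mean and SD of a group. Ccnd1 is at 12.72 or above on all WT CCl4 arrays, Tk1 is at 13.66 or above on all 7 Lcn2-/- arrays, and for Cdk1, Kif11 and Mki67 replicate 3 is the highest array of each control group and replicate 1 the highest of WT CCl4. In Lcn2-/- control, replicate 3 stays below all 9 CCl4 arrays for Cdk1 (7.99), and for Kif11 (5.37) it is not above background.

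CDK1, the kinase that drives entry into mitosis, was the only gene of the 47 called in both genotypes. Cdk1 measured 7.81, 7.87, 9.24 and 7.41 in WT control, 7.15, 7.3 and 7.99 in Lcn2-/- control, 10.26, 9.5, 9.11, 8.49 and 9.02 in WT CCl4, and 9.17, 8.76, 8.78 and 9.26 in Lcn2-/- CCl4. Cdk1 rose by 1.2 ± 0.372 (2.29-fold; adjusted p = 0.0402 by limma) in WT mice, with WT control replicate 3 inside the CCl4 range, and by 1.51 ± 0.424 (2.85-fold; adjusted p = 0.0318 by limma) in Lcn2-/- mice. There every CCl4 array lay above every control, as held for 6 of 26 G2/M genes (23.1%) and 12.1% of all genes. The exact permutation p of Cdk1 (two-sided) was 0.0286 in Lcn2-/- mice and 0.0556 in WT mice. A second Cdk1 probe, above background on 4 arrays, gave 0.2 ± 0.422 in WT mice, and with the mean of the probes neither call held (adjusted p = 0.236 and 0.0907 by limma). Leaving out 1 array at a time, Cdk1 lost its call in 8 of 16 fits in WT mice (without WT control replicate 1, 2 or 4, WT CCl4 replicate 1, 2, 3 or 5 or Lcn2-/- CCl4 replicate 3) and in 5 of 16 in Lcn2-/- mice (without Lcn2-/- control replicate 1 or 2 or Lcn2-/- CCl4 replicate 1, 3 or 4), with differences from 0.95 to 1.58 and from 1.35 to 1.77. With slide as a fixed block the Lcn2-/- call was lost (2.74 ± 0.663; adjusted p = 0.056 by limma), and the WT call was not (2.18 ± 0.548; adjusted p = 0.0368 by limma). With the replicate number as a block the WT call was lost (1.26 ± 0.398; adjusted p = 0.0584 by limma), and the Lcn2-/- call was not (1.65 ± 0.44; adjusted p = 0.0375 by limma).

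Cyclins A2, B1 and B2 are the partners of CDK1. Ccna2 measured 8.84, 9.09, 10.47 and 8.3 in WT control, 7.51, 7.51 and 9.12 in Lcn2-/- control, 11.33, 10.78, 9.76, 9.19 and 9.23 in WT CCl4, and 9.6, 9.1, 8.92 and 8.84 in Lcn2-/- CCl4. Ccnb1 measured 7.97, 8.04, 9.94 and 7.56 in WT control, 6.41, 6.57 and 7.97 in Lcn2-/- control, 10.85, 9.74, 8.5, 8.26 and 8.26 in WT CCl4, and 8.08, 7.74, 7.8 and 7.52 in Lcn2-/- CCl4. Ccnb2 measured 10.59, 11.13, 12.03 and 10.12 in WT control, 9.84, 10.25 and 10.82 in Lcn2-/- control, 13.53, 12.29, 11.6, 10.83 and 10.67 in WT CCl4, and 11.19, 10.47, 11.08 and 10.38 in Lcn2-/- CCl4. For all 3 the lowest array was Lcn2-/- control replicate 1 or 2, and the highest was WT CCl4 replicate 1. None passed the test in either response. The WT differences were 0.89 ± 0.518, 0.75 ± 0.575 and 0.82 ± 0.524 and the Lcn2-/- differences 1.07 ± 0.59, 0.8 ± 0.655 and 0.47 ± 0.596. The other Ccnb1 probes gave 1.67 ± 0.719 and 0.7 ± 0.715 in WT mice.

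Kinesins and spindle proteins build the mitotic spindle. Kif11 measured 5.42, 5.67, 6.68 and 5.47 in WT control, 3.99, 2.91 and 5.37 in Lcn2-/- control, 7.65, 6.96, 6.49, 6.21 and 5.74 in WT CCl4, and 6.58, 6.12, 5.85 and 6.56 in Lcn2-/- CCl4. KIF11, the motor that pushes the spindle poles apart, was above background on 0 of 3 Lcn2-/- controls and on all other arrays. It rose at least 1.69-fold with CCl4 in Lcn2-/- mice (adjusted p = 0.0142 by limma; fitted difference 2.19 ± 0.527), while in WT mice the difference was 0.8 ± 0.463 (adjusted p = 0.265 by limma). Among the controls every Lcn2-/- array lay below every WT array, the only G2/M gene of which this was true. The Lcn2-/- call was lost without Lcn2-/- control replicate 1 or 2. The fitted difference was 0.73 (adjusted p = 0.0556 by limma) after normexp background correction and 3.49 (adjusted p = 0.0616 by limma) with slide as a fixed block. Kif20a, Kif23, Nusap1, Tpx2, Prc1 and Ect2, which act in the spindle and in cytokinesis, had WT differences of 0.6, 0.8, 0.9, 1.15, 0.65 and 0.55 and Lcn2-/- differences of 0.57, 0.7, 1.3, 1.51, 1.12 and 0.49, none past the test. Of these, Nusap1 had every Lcn2-/- CCl4 array above every Lcn2-/- control. Tpx2 was above background on 1 of 3 Lcn2-/- controls, so the size of its Lcn2-/- difference rests on values near the floor.

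Plk1 and Aurora A are kinases of centrosome maturation and the spindle. Plk1 measured 8.86, 8.71, 10.88 and 8.8 in WT control, 7.59, 7.59 and 9.37 in Lcn2-/- control, 11.97, 11.07, 9.76, 9.49 and 9.41 in WT CCl4, and 9.66, 9.19, 9.21 and 8.9 in Lcn2-/- CCl4. Aurka measured 9.01, 9, 10.34 and 8.59 in WT control, 8.14, 8.12 and 9.17 in Lcn2-/- control, 11.5, 10.39, 9.41, 9.04 and 9.48 in WT CCl4, and 9.43, 8.93, 9.07 and 9.37 in Lcn2-/- CCl4. Their WT differences were 1.03 ± 0.59 and 0.73 ± 0.462, and WT control replicate 3 was inside the WT CCl4 range in both. Bub1, Bub1b, Ttk and Melk are kinases of the spindle checkpoint and of proliferating cells. They had WT differences of 1.37 ± 0.592, 1 ± 0.607, 1.52 ± 0.552 and 1.41 ± 0.652, the lowest adjusted p of Bub1, Bub1b and Melk being 0.132 for Bub1 by limma. Ttk was above background on 4 arrays, 3 of them WT CCl4, through which it passed the filter, so its value is a description. Bub1 was above background on 10 arrays, 1 of them a control, and passed the filter only through CCl4 arrays, so its CCl4 responses are a description as well. The levels of Ttk and Bub1 in controls are near the floor. Bub1b in Lcn2-/- mice had a fitted difference of 2.11 ± 0.691 (adjusted p = 0.061 by limma), with every CCl4 array (6.34 to 6.92) above every control (2.9 to 6.3). Of those 3 controls 1 was above background, so the size of the difference rests on values near the floor.

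Cdc20 measured 10.47, 10.72, 12.03 and 9.82 in WT control, 8.7, 8.63 and 10.61 in Lcn2-/- control, 13.16, 12.18, 11.1, 10.45 and 10.43 in WT CCl4, and 10.79, 10.37, 10.14 and 10.06 in Lcn2-/- CCl4. Ube2c measured 8.78, 9.39, 10.74 and 8.52 in WT control, 7.56, 8.29 and 8.97 in Lcn2-/- control, 10.86, 10.89, 9.62, 9.02 and 8.51 in WT CCl4, and 9.65, 9.13, 8.75 and 8.56 in Lcn2-/- CCl4. CDC20 and UBE2C direct the anaphase-promoting complex, and neither passed the test (WT differences 0.71 ± 0.596 and 0.42 ± 0.545). Top2a measured 5.64, 6.22, 8.76 and 6.93 in WT control, 5.07, 4.39 and 7.48 in Lcn2-/- control, 9.74, 8.63, 7.73, 7.42 and 7.46 in WT CCl4, and 7.53, 7.45, 6.97 and 6.32 in Lcn2-/- CCl4. Mki67 measured 9.81, 9.93, 11.6 and 9.77 in WT control, 8.68, 8.66 and 10.56 in Lcn2-/- control, 13.02, 12, 10.84, 10.71 and 10.89 in WT CCl4, and 10.69, 10.24, 10.38 and 10.44 in Lcn2-/- CCl4. Topoisomerase II alpha untangles chromosomes and Ki-67 coats them, and both are used as marks of dividing cells. Top2a was above background on 1 of 3 Lcn2-/- controls. The WT differences were 1.31 ± 0.709 and 1.21 ± 0.533 (adjusted p = 0.231 and 0.139 by limma) and the Lcn2-/- differences 1.42 ± 0.807 and 1.14 ± 0.607. Without the 2 controls numbered 3, both were called in both genotypes, with Mki67 at 1.66 (adjusted p = 0.0149 by limma) in WT and 1.77 (adjusted p = 0.0342 by limma) in Lcn2-/-. A second Mki67 probe gave 1.28 ± 0.534 in WT mice.

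Birc5 measured 10.88, 11.04, 12.54 and 10.62 in WT control, 10.56, 9.99 and 11.38 in Lcn2-/- control, 14, 12.79, 12.03, 11.61 and 11.48 in WT CCl4, and 11.8, 11.43, 11.51 and 11.25 in Lcn2-/- CCl4. Foxm1 measured 7.5, 7.45, 8.59 and 7.28 in WT control, 6.63, 6.57 and 7.45 in Lcn2-/- control, 10.14, 9.14, 8.16, 7.92 and 8.18 in WT CCl4, and 7.84, 7.6, 7.79 and 7.67 in Lcn2-/- CCl4. Survivin (Birc5) guides chromosomes to the spindle, and FOXM1 is the transcription factor of the late cell cycle genes. In WT mice their differences were 1.11 ± 0.499 and 1.01 ± 0.405 (adjusted p = 0.147 and 0.107 by limma). Foxm1 and Cenpa, the histone of the centromere, did not overlap between Lcn2-/- CCl4 and Lcn2-/- control. Cenpa and Cenpe had WT differences of 0.49 ± 0.27 and 0.74 ± 0.538. Mybl2, which encodes B-MYB, had a flat chosen probe (8.28 to 8.84, WT difference 0.04 ± 0.12), whereas its second probe gave 0.8 ± 0.243 (unadjusted p = 0.00504 by limma) in WT mice, with r = 0.53 between the probes over 16 arrays.

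**Figure D4:**
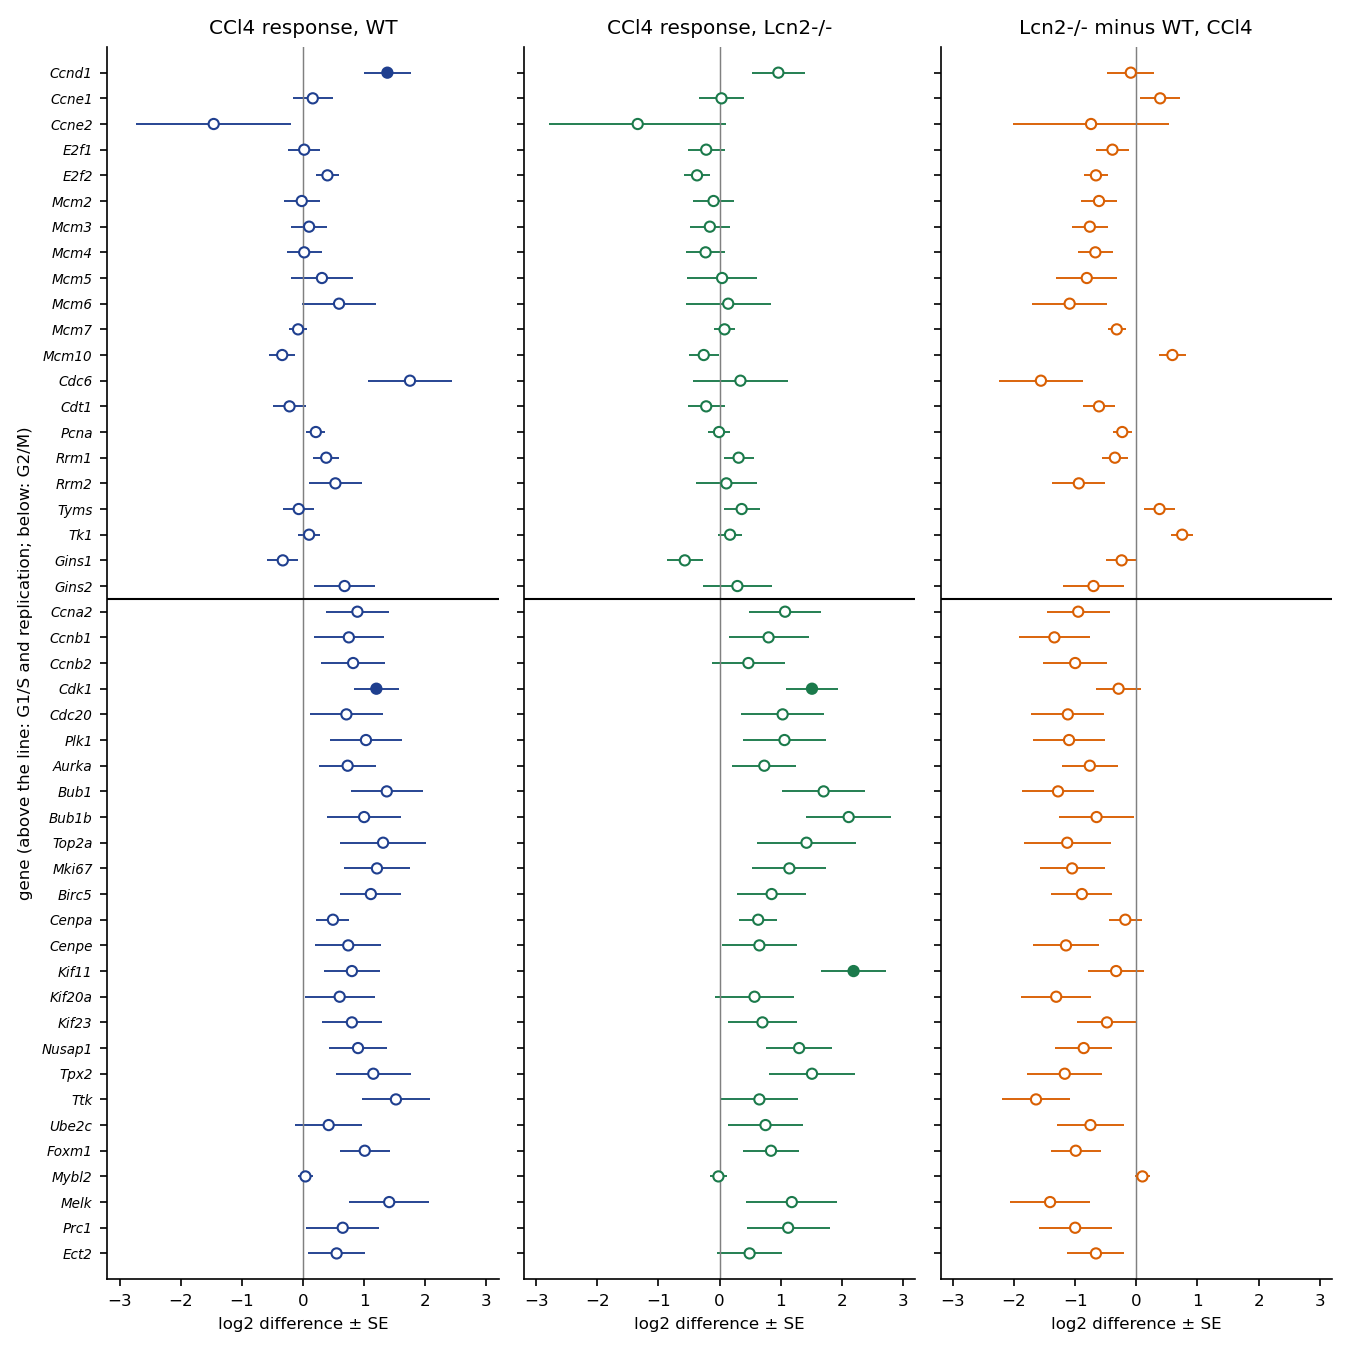
Log2 difference (x axis, point) with its SE (bar) from limma for each of the 47 tested genes (y axis), in 3 panels: WT mice after CCl4, Lcn2-/- mice after CCl4, and the genotypes compared under CCl4. Filled points have adjusted p under 0.05: Ccnd1 and Cdk1 in WT, Cdk1 and Kif11 in Lcn2-/-, and none in the genotype comparison, where 42 of 47 lie below 0.

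To compare genotypes after injury, Lcn2-/- CCl4 was set against WT CCl4. The median difference was -0.99 over the G2/M genes and -0.61 over the G1/S and replication genes, against 0 over all genes. Of the 47 genes, 42 were lower in Lcn2-/- mice by sign, and 0 were called by limma, where 0.636% of all genes were. At unadjusted p under 0.05, 13 of 47, Cdc6 and Ttk among them, were lower and 2 (Tk1 and Mcm10) higher (31.9%). Of all genes 13.7% passed in either direction. Cdc6 and Ttk passed the filter only through WT CCl4, so they are no support in this count. In 15 of 47 genes (31.9%) every Lcn2-/- CCl4 array lay below every WT CCl4 array, where this held for 3.26% of all genes. The 15 were Ccne2, E2f2, Mcm3, Mcm4, Mcm6, Cdc6 and Pcna of the G1/S and replication genes and Ccnb1, Bub1, Mki67, Cenpe, Tpx2, Ttk, Foxm1 and Melk of the G2/M genes. For Ccne2 and Ttk some WT CCl4 arrays and all Lcn2-/- CCl4 arrays were not above background, and Cdc6 passed the filter only through WT CCl4, so the order of these 3 carries no weight. The other 12 of 47 (25.5%) had this order with every WT CCl4 array above background and passed the filter without the WT CCl4 arrays, as did 2.81% of all genes. The genes are not independent of each other, since the same 9 arrays give all of them.

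Among the genes with values on all arrays, Cenpe showed this gap with 8.51, 8.46, 8.42 and 8.55 in Lcn2-/- CCl4 against 10.91, 10.1, 9.15, 8.89 and 9.13 in WT CCl4, a difference of -1.15 ± 0.538. Mki67 was 10.24 to 10.69 against 10.71 to 13.02, with a difference of -1.05 ± 0.533 (exact permutation p = 0.0476, two-sided; adjusted p = 0.407 by limma). Ccnb1 differed by -1.34 ± 0.575 (exact permutation p = 0.0397, two-sided; adjusted p = 0.331 by limma). The gap between the groups was narrow in these genes, the mean being drawn by WT CCl4 replicates 1 and 2. Within slide 2, without WT CCl4 replicate 1, the median difference was -0.63 over the G2/M genes and -0.21 over the G1/S and replication genes, with 24 of 26 and 16 of 21 lower, 0 G2/M genes called by limma (0.538% of all genes in that fit), and 1 of 26 G2/M and 4 of 21 G1/S and replication genes at unadjusted p under 0.05 (12.4% of all genes). The single call among the 47 was then Tk1, which was higher. In this comparison the WT arrays were in row 1 of the slide and the Lcn2-/- arrays in row 2.

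In control livers the G2/M genes were also lower in Lcn2-/- mice by sign, in 25 of 26 with a median of -1.11, and of the G1/S and replication genes 16 of 21 with a median of -0.28. None was called by limma, where 0.53% of all genes were, and 8 of 47 passed without adjustment (7 lower, 1 higher), where 8.3% of all genes did. Every Lcn2-/- control lay below every WT control in 2 of 47 genes (4.26%), Kif11 and Mcm7, where 5.42% of all genes did so. The median for the G2/M genes was -0.59 without WT control replicate 3, -1.65 without Lcn2-/- control replicate 3 and -1.19 without both. Controls with the same number deviated together, and the G2/M median of Lcn2-/- control minus that of the WT control of the same number was -1.27, -1.24 and -1.41 for replicates 1 to 3, and the G1/S and replication one -0.31, -0.18 and -0.15. Controls of the same number also shared a position within their rows of slide 1, so replicate number and position cannot be told apart here. With the replicate number as a block the medians were -1.29 and -0.28, again with 0 of 47 called by limma (0.378% of all genes in that fit). Without adjustment 10 of 26 G2/M genes then passed in place of 6, where 8.8% of all genes did with the block and 8.3% without it. The G1/S and replication median ran from -0.53 (without Lcn2-/- control replicate 3) to -0.1 (without Lcn2-/- control replicate 1) when 1 array was left out. The difference between the 2 CCl4 responses had a median of 0.04 over the G2/M genes and -0.24 over the G1/S and replication genes, with 0 of 47 called by limma (0.0534% of all genes) and 1 of 47 at unadjusted p under 0.05 (3.33% of all genes). Its sign over the G2/M genes depended on single controls, the median being -0.38 without WT control replicate 3 and 0.63 without Lcn2-/- control replicate 3. Over the G1/S and replication genes it ran from -0.37 without Lcn2-/- control replicate 1 to 0.07 without Lcn2-/- control replicate 3, with 0 called by limma in all 16 fits. The mean levels ranked Lcn2-/- control lowest and WT CCl4 highest in 25 of 26 G2/M genes and in 6 of 21 G1/S and replication genes, and WT control and Lcn2-/- CCl4 lay between them.

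The G2/M genes moved together from animal to animal within a group. After the group means were taken out, each G2/M gene was correlated with the median of the other G2/M genes. Over the 16 arrays, which share 1 normalization, this correlation was 0.94 at the median, from 0.6 (Mybl2) to 0.99 (Ccnb1 and Mki67). For the G1/S and replication genes it was 0.81 at the median, from -0.32 (Mcm10) to 0.97 (Mcm6), with Tyms at -0.2 and the medians of both sets at 0.94 with each other. The spread was wider than for other genes, with a median within-group SD of 0.86 for G2/M and 0.449 for G1/S and replication genes against 0.299 over all genes. Top2a (1.14), Cdc6 (1.1) and Melk (1.05) varied most among those with a correlation above 0.85, while Pcna (0.224) and Mcm7 (0.219) varied little. The genes outside all lists most like the G2/M median over the 16 arrays were Gm5593 (r = 0.982), Sapcd2 (0.98), Tedc1 (0.978), a noncoding intergenic probe (0.976) and the transcript probe NAP102625-1 (0.969).

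Since these genes varied together, the promoter elements named above were looked for in the RefSeq promoters of assembly GRCm38.p6, which held 39 of the 50 genes. The 250 bases before each start were searched on both strands. The CHR was spelled TTTGAA or, in its other form, TTTAAA. The box was spelled by the 5 letters of its name, CCAAT. The E2F motif was taken in 3 forms, of which the first was TTCCCGC, the next was TTGGCGC and the last was TTTCGCG. The middle E2F form, read on the opposite strand, can share bases with the box, as in Ccnb1, and it shares bases with the last form in Mcm6. Of the 25 promoters of 23 G2/M genes, 60% held a CHR, 84% a CCAAT box and 16% an E2F motif. Of the 18 promoters of 16 G1/S and replication genes, 27.8% held a CHR, 66.7% a CCAAT box and 33.3% an E2F motif. Over all 32851 promoters of the table the shares were 25.2%, 33.8% and 6.24%. A match is a description of these letters and not a site of binding.

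The 150 bases just before the start are shown for 3 genes of each set whose levels followed the G2/M median, 5′ to 3′ on the gene's own strand, with every match in capitals. They are Mcm5 (chr8:75109359-75109508, plus strand), Mcm6 (chr1:128359706-128359855, minus strand), Rrm2 (chr12:24708104-24708253, plus strand), Ccnb1 (chr13:100786487-100786636, minus strand), Cdc20 (chr4:118437344-118437493, minus strand) and Cdk1 (chr10:69352913-69353062, minus strand). The promoters of Ccnd1, Ccne2, Mcm4, Gins1, Gins2, Ccna2, Cdc25c, Aurkb, Kif20a, Tpx2 and Foxm1 are not shown or counted. In this stretch Mcm6 holds 3 E2F and 2 CCAAT matches, while Cdk1 holds 2 CHR, 2 CCAAT and 1 E2F match and Cdc20 holds 1 CHR and 2 CCAAT matches close to the start.
Mcm5: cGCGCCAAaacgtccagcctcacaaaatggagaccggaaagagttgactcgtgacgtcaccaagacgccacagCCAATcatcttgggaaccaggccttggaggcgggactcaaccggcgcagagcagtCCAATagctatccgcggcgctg
Mcm6: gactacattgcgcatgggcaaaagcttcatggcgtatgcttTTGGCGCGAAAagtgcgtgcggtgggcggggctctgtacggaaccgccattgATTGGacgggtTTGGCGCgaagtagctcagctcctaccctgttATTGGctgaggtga
Rrm2: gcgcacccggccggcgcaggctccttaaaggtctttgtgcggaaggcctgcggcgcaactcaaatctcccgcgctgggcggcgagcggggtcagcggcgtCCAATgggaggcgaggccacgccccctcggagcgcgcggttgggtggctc
Ccnb1: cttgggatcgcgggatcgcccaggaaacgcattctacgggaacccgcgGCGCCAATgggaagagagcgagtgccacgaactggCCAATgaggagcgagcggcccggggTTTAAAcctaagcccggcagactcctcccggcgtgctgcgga
Cdc20: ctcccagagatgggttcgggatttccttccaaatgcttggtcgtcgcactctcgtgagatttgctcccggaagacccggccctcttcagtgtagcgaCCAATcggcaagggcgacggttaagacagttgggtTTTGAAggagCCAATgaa
Cdk1: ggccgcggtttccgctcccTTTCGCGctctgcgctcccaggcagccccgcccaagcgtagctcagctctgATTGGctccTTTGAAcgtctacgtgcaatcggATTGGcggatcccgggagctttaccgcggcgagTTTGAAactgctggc

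Other cell cycle genes were described by the same fit. Of 56 further mitosis genes 52 were tested, and their medians were 0.7 and 0.65 for the WT and Lcn2-/- responses and -0.76 and -0.72 for Lcn2-/- against WT under CCl4 and in controls. Spc25, a kinetochore gene, and Arhgap11a, a regulator of RhoA in cytokinesis, were called higher in both genotypes (0.95 ± 0.179 and 1.15 ± 0.329 in WT, 0.88 ± 0.204 and 1.65 ± 0.374 in Lcn2-/-; adjusted p = 0.00224, 0.0277, 0.0116 and 0.0102 by limma). Cep55, of the midbody, was called lower in WT mice (-1.94 ± 0.43; adjusted p = 0.00669 by limma). Of 50 further replication genes 45 were tested, with medians of 0.03 and -0.07, and Wdhd1 (-0.82 ± 0.207) and Cdc45 (-0.64 ± 0.146) were called lower in WT mice (adjusted p = 0.0144 and 0.00795 by limma). All 30 CDK, cyclin and RB-E2F genes were tested, with medians of -0.04 and 0.02, and 1, the MuvB subunit Lin52, was called lower in WT mice (-0.44 ± 0.137; adjusted p = 0.0398 by limma). The shares called in WT mice were 5.77% of the mitosis, 4.44% of the replication and 3.33% of the CDK, cyclin and RB-E2F genes, each below the 16.8% of all genes, and in Lcn2-/- mice 3.85%, 0% and 0%, against 12.2%. No gene of these lists was called in either genotype comparison, where in other mitosis genes 19 of 52 (36.5%) under CCl4 and 13 of 52 (25%) in controls passed at unadjusted p under 0.05 by limma, against 13.7% and 8.3% of all genes. The same shares were 22.2% and 2.22% for the replication genes and 6.67% and 13.3% for the CDK, cyclin and RB-E2F genes.

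Of 10 genes for inhibitors of the cell cycle kinases, all tested, 2 were called higher in WT mice (20%, against 16.8% of all genes called in either direction) and 3 in Lcn2-/- mice (30%, against 12.2%). The p57 gene Cdkn1c rose by 2.15 ± 0.223 in WT and 1.75 ± 0.254 in Lcn2-/- (adjusted p = 2.47e-05 and 0.000527 by limma). The p18 gene Cdkn2c, an inhibitor of CDK4 and CDK6, rose by 1.54 ± 0.2 and 2.4 ± 0.228 (adjusted p = 0.000134 and 2.01e-05 by limma). The p21 gene Cdkn1a, a target of p53, rose by 2.66 ± 0.778 in Lcn2-/- mice (adjusted p = 0.0387 by limma), with 1.91 ± 0.683 in WT mice (adjusted p = 0.071 by limma). The median of the 10 was -0.76, -0.67, 0.37 and -0.87 in WT control, so that WT control replicate 3 was again the highest. In Lcn2-/- control it was -0.81, -1.03 and -0.01, again highest in replicate 3. After group means were removed, this median had r = 0.82 with the G2/M median.

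Marker lists of liver cell types were followed on the same arrays, as medians of deviations. The hepatocyte list (7 of 7 tested) lay between -0.13 and 0.11 on all arrays and had r = -0.04 with the G2/M median after group means were removed. The neutrophil list (5 of 5) lay between -2.01 and 0.43 in WT control, -2.48 and 1.31 in Lcn2-/- control, 0.86 and 1.86 in WT CCl4 and 0.03 and 0.75 in Lcn2-/- CCl4, with its highest control of each genotype in replicate 3 (r = 0.64). The macrophage list (8 of 9) ran from -1.13 to 0.83, -1.07 to 0.36, 0.04 to 0.85 and -0.16 to 0.45 in the same order of groups, again highest in the controls numbered 3 (r = 0.56). The stellate and myofibroblast list (7 of 7) ran from -1.01 to 0.02, -1.19 to -0.79, 0.59 to 1.1 and 0.15 to 0.56 (r = 0.49), and T, B and NK markers (9 of 10) had r = 0.38. Endothelial (5 of 5), cholangiocyte (4 of 4) and erythroid (3 of 5) markers had r of 0.17, 0.15 and -0.32. The part of these cells in the G2/M levels was not tested.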

How the data were processed

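The authors scanned 1-colour Agilent arrays and deposited the spot intensity of each array (processed signal, background-subtracted and detrended by Feature Extraction 10.7.3.1), with probe positions on mm9. They also deposited a series table of log2 values. The study's methods name quantile normalization for the analysis, and the table was matched to it only from the values. The table's columns had r of 0.996 to 0.997 with the values used here, slopes of 0.909 to 0.922 and medians of 6.53 to 6.55, and its background treatment stays unknown. Here log2 of the processed signal was quantile-normalized over 16 arrays, control and outlier spots were left out, spots of a probe were averaged, and 121 of 55681 probes were dropped. Of these, 33014 were well above background on at least 3 arrays. For each of 24357 genes the probe with the highest mean was fitted with limma 3.58.1 (R 4.3.3; lmFit, contrasts.fit, eBayes) over the 4 groups, with Benjamini-Hochberg adjustment over all genes and a threshold of 0.05. The procedure was tested on simulated data. Members were named by the array's design. Of all gene spots 49.8% matched a RefSeq accession. Outside the members, a matched spot took the RefSeq symbol and any other spot kept the name of the design. Precision is limited by how many arrays each group has.

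The members and lists were chosen with earlier results of these data known. Values of every array are given for Ccnd1, Ccne1, Ccne2, E2f1, Mcm2, Mcm5, Pcna, Rrm2, Tyms, Tk1, Ccna2, Ccnb1, Ccnb2, Cdk1, Cdc20, Plk1, Aurka, Top2a, Mki67, Birc5, Ube2c and Foxm1 and for up to 8 members of each set past the threshold, and other lists by their 3 largest rises and falls. The 5 genes most like the G2/M median were taken from outside all lists. Marker lists covered hepatocytes, macrophages, stellate cells, endothelium, T, B and NK cells, cholangiocytes, neutrophils and erythroid cells.

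Same-numbered WT and Lcn2-/- controls deviated together (r = 0.233 to 0.552 over 3 pairs), a pairing that rests on this correlation and not on the labels. These controls also shared a position within their rows of slide 1, so replicate number and position cannot be told apart among them. The criterion was r above 0.1 in every pair, which the other group pairs did not meet: WT control with WT CCl4 ran from -0.07 to 0.165 (4 pairs), Lcn2-/- control with Lcn2-/- CCl4 from 0.008 to 0.019 (3 pairs) and WT CCl4 with Lcn2-/- CCl4 from -0.221 to 0.252 (4 pairs). Where a probe was above background on no array of a group, the fold is a lower bound, set against the lowest signal well above background on each array. Alternatives were 75th percentile scaling, normexp with offset 50, the series table, other probe filters and probe means, the slide or replicate number as a block, array weights, only the 2 groups compared, leaving out the top 20 rows of the array, and leaving out each array.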

Additional observations from a re-analysis of the deposited data

Results flagged for a closer look

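Some levels stood apart within their group by Dixon's ratio, the gap to the nearest array divided by the range of the group. Groups of 4 or 5 arrays were tested, and Lcn2-/- control, with 3 arrays, was not, so nothing is said here of its replicate 3. Chance marks about 1 in 20 groups, and 15 of 147 levels in the 3 groups tested were marked, 10 of them on WT control replicate 3. That array was the high one for the G2/M median (ratio 0.877; 1.27 against -0.43 for the nearest), the G1/S and replication median (0.916; 0.48 against -0.16), Cenpe (0.952), Mcm5 (0.949), Plk1 (0.929), Mki67 (0.916), Mcm6 (0.891), Bub1 (0.878), Rrm2 (0.875) and Foxm1 (0.837). WT CCl4 replicate 1 was the high one of its group for Ccne2 (0.809), Pcna (0.728) and Cdt1 (0.714). Ccne2 was also far above the other WT controls on WT control replicate 2 (0.897; 10.41 against 3.68). Ccnd1 was highest among Lcn2-/- CCl4 arrays on replicate 1 (0.87; 14.1 against 13.13).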

How the results depend on the processing

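Of the counts of called members under the alternatives, 244 stayed within 1.5 times the count reported and 44 did not. A count of 0 that stayed 0 is among the 244. The reported counts were 0 in both genotype comparisons, in the difference between the CCl4 responses and for G1/S and replication genes in the Lcn2-/- response. In each case below the cause was not tested. Calls over all genes moved too, from 16.8% in WT and 12.2% in Lcn2-/- mice to 29% and 28.6% with array weights, 5.35% and 1.74% with slide as a fixed block and 22.4% and 15.1% without both controls numbered 3, and in controls from 0.53% to 5.21% with array weights. The G2/M count of the WT response (1) was 0 without a filter on dim probes, with the mean over probes, with the replicate block (Cdk1 at adjusted p = 0.0584 by limma) and with only the 2 groups fitted, 4 with array weights, 8 with slide as a fixed block, which rests on WT CCl4 replicate 1 alone for both genotypes, and 15 without both controls numbered 3. Of all genes 10.4% were called without that filter, 16.6% with the mean over probes and 15.5% each with the replicate block and with only the 2 groups. Leaving out 1 array gave 0 to 8, the 8 without WT control replicate 3, where 21% of all genes were called. The G2/M count of the Lcn2-/- response (2) was 1 with normexp, with the mean over probes and with only the 2 groups (11.9%, 12% and 7.21% of all genes). It was 12 with array weights and 10 without both controls numbered 3, while with slide as a fixed block the 2 were Cenpa and Foxm1. When 1 array was left out it ran from 0 to 5. The 5 (19.2%) came without Lcn2-/- control replicate 3, where 12.4% of all genes were called. The G1/S and replication count of the WT response (1) was 2 with slide as a fixed block (Rrm1 and Rrm2, not Ccnd1), 3 with array weights, 2 without both controls and 0 to 2 leaving out 1 array. That of the Lcn2-/- response (0) was 2 with array weights, 1 without both controls and 0 to 1 leaving out 1 array. Under CCl4 the genotype count of G1/S and replication genes (0) was 1 with slide as a fixed block and with array weights, and 0 to 1 leaving out 1 array, the 1 being Tk1 without WT CCl4 replicate 1. In controls array weights gave 2 G1/S and replication and 3 G2/M genes in place of 0. In the control comparison, where a pairing by replicate number rests only on the correlation given above, the replicate block left both counts at 0.

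Of 92 single differences followed, 20 changed sign somewhere, none with adjusted p under 0.05 by limma in that setting (lowest 0.325). With slide as a fixed block, Ccnd1 was 0.06 between genotypes under CCl4, the WT response was 0.78 for Ccne2, 0.78 for Mcm2 and 0.1 for Tyms, and the Lcn2-/- response was 1.46 for Ccne2, 0.88 for E2f1, 0.9 for Mcm2 and 0.45 for Pcna. With array weights Ccne1 was -0.04 in WT and -0.3 in Lcn2-/-, E2f1 -0.1 in WT and Pcna 0.06 in Lcn2-/-. With slide as a random block the Lcn2-/- responses of Ccne1 and Mcm5 were both -0.01. With the replicate block Mcm2 was 0.03 in WT and 0.05 in Lcn2-/-, and Pcna 0.01 in Lcn2-/-. Without both controls numbered 3 the Lcn2-/- response was 0.07 for E2f1, 0.15 for Mcm2 and 0.13 for Pcna, and the WT response of Mcm2 was 0.2. With normexp the Lcn2-/- response of Mcm5 was -0.04, and with the series table that of Pcna was 0.01. In controls Pcna was 0.02, 0.03 and 0.02 and Tyms 0.04, 0.02 and 0.02 with 75th percentile scaling, normexp and the series table. Leaving out 1 array, the WT response ran from -0.09 to 0.3 for Ccne1, -2.19 to 0.31 for Ccne2, -0.2 to 0.16 for E2f1, -0.22 to 0.2 for Mcm2, -0.03 to 0.7 for Mcm5, -0.21 to 0.01 for Tyms and -0.06 to 0.24 for Tk1. The Lcn2-/- response ran from -0.19 to 0.22 for Ccne1, -0.39 to 0.07 for E2f1, -0.26 to 0.15 for Mcm2, -0.28 to 0.67 for Mcm5, -0.12 to 0.13 for Pcna and -0.11 to 0.46 for Rrm2. In controls the range was -0.14 to 0.77 for Ccnd1, -1.86 to 0.91 for Ccne2, -0.44 to 0.02 for E2f1, -0.15 to 0.13 for Pcna and -0.19 to 0.03 for Tyms, and under CCl4 -0.35 to 0.06 for Ccnd1. Signal near background limits Ccne2, Cdc6, Ttk, Bub1 and Kif11. In Lcn2-/- control it also limits Bub1b, Top2a, Tpx2 and Melk, each above background on 1 array of that group.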
